A study of Sus scrofa with 220 samples.

Results

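VCAN, LRAT, PECAM1, C1QA, TLR3, PLK2 and SERPINB10 are 7 genes that were read in the inner cell mass (ICM) of the early pig blastocyst and almost not at all in its trophectoderm (TE). They were chosen from these data, for counts in EB ICM cells and nearly none in EB TE cells, so that difference is what selected them and is described here without a test. The 7 genes are 7 of the 22840 gene entries in the files, and all 7 were among the 14721 genes that reached a TPM (transcripts per 1000000, adjusted for gene length) over 1 in 3 or more cells and were tested. C1QA reached that level in EB ICM cells alone. The rule of choice did not use how the genes behaved in the later epiblast and hypoblast, or whether the morula differed from those later cells. Earlier results of these data were known, however, when the genes and gene lists were chosen.

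The embryos were flushed from crossbred Large White and Landrace sows after artificial insemination, and their cells were picked by hand for Smart-seq2, a protocol that reads whole polyadenylated transcripts of a single cell. The labels name no allele, age or agent for any group. Morulae (M) gave 47 cells, early blastocysts (EB) gave 24 ICM and 28 TE cells, late blastocysts (LB) gave 25 epiblast (EPI) and 36 hypoblast (HYPO) cells, and spherical embryos (Sph) gave 48 EPI and 12 HYPO cells. The trophectoderm of the later embryos was taken off before dissociation, so TE is represented at the EB stage alone. Because cells of an embryo are not replicates, the counts of all cells that share an embryo and a lineage were added up. This gave 8 sums for M, 7 for ICM, 10 for TE, 4 for LB EPI and 5 for LB HYPO, with 4 for Sph EPI and 3 for Sph HYPO. A sum holds 1 to 19 cells, and 6 sums hold a single cell. In such a sum, fewer cells that use a gene and less RNA of it in each cell cannot be told apart, which is why shares of cells are given as well. Nothing in the labels says which embryos shared a litter, and p-values measure the spread between these sums.

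The first cells to part in the mammalian embryo are the outer trophectoderm, which forms the placenta, and the inner cell mass. The inner cell mass then divides into the epiblast, the source of the body, and the hypoblast, a covering epithelium that contributes to the yolk sac. The 7 genes are best known from other tissues and belong to different pathways. VCAN encodes versican, a large chondroitin sulfate proteoglycan that binds hyaluronan in the extracellular matrix. LRAT encodes the enzyme that joins retinol to a fatty acid for storage, and thereby sets how much retinol is left for retinoic acid synthesis. PECAM1 is an adhesion molecule of endothelium, platelets and leukocytes. C1QA is a chain of C1q, which starts the classical complement pathway, and TLR3 is an endosomal receptor for double-stranded RNA. PLK2 is a polo-like kinase that acts in centriole duplication and in the response to stress, and SERPINB10 is an intracellular serine protease inhibitor known from blood-forming cells.

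The lineages at LB carried the markers of their labels, and those at EB did so in part. Sph HYPO carried trophectoderm markers beside its hypoblast markers. The 9 trophectoderm markers had a summed level of 315 to 58580 counts per 1000000 of a sum's total (CPM) in EB TE sums, with a median of 42922, against 268 to 758 in EB ICM sums and 18499 to 43178 in Sph HYPO sums. In Sph HYPO that sum was mostly KRT8, at a mean of 26031 CPM. Of the list, GATA3 and ANXA6 were over 1 TPM in 9 of 12 Sph HYPO cells. There DAB2 and CLDN4 were over 1 TPM in 12 cells, TEAD1 in 5, TFAP2A in 2 and GATA2 in 0. The 7 hypoblast markers that could be matched summed to 3763 to 12541 CPM in LB HYPO and 44.7 to 266 CPM in LB EPI. At Sph they summed to 4956 to 16044 CPM in HYPO and 53.6 to 89.2 CPM in EPI. The 9 matched markers of pluripotent cells summed to 673 to 2722 CPM in LB EPI and 70.9 to 299 CPM in LB HYPO, though 5 of the 14 genes on that list had no matched entry. In Sph EPI they summed to 1289 to 1708 CPM and in Sph HYPO to 44.2 to 149 CPM. A single EB TE cell went against its label, with KRT8 at 0 and KRT18 at 0.368 TPM where the lowest of the other 27 TE cells had 1198 and 753 TPM. That cell held 0 counts of the 7 genes, and their TE totals were the same without it. Depth was alike in the groups, with a median of 1660325 to 2235586 counts per cell and 1012604 to 5696373 counts in all cells. Genes with a count were fewest in EB TE, with a median of 4939 per cell. The median was 5844.5 in EB ICM and 6558 in Sph EPI, the highest.

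In the early blastocyst the 24 ICM cells, with 53980675 counts in all, held 18573 counts of VCAN, 10948 of PECAM1, 7060 of SERPINB10, 4932 of TLR3, 4615 of PLK2, 2769 of LRAT and 2685 of C1QA. The 28 TE cells, with 60310259 counts in all, held 10 counts of PECAM1, 5 of VCAN, 3 of PLK2, 2 of SERPINB10, 1 of TLR3 and 0 of LRAT and C1QA. TE had thus more sequence behind it than ICM, though a median TE cell had counts for fewer genes. Against a floor of 3 counts over the TE group, LRAT was at least 1031-fold and C1QA at least 1000-fold higher in ICM. PECAM1 was 1223-fold higher, with a 95% counting interval of 665 to 2551, and VCAN 4150-fold higher, with an interval of 1778 to 12783. The ratio of SERPINB10 was 3944 (1091 to 32573), that of TLR3 was 5510 (989 to 217689) and that of PLK2 was 1719 (588 to 8337). All these intervals and floors cover counting error only, and those given for shares of cells treat cells as independent, which cells of an embryo are not, so that they are too narrow. The values just inside the choice are the 2685 ICM counts of C1QA and the 10 TE counts of PECAM1. By those limits 19 of the 14721 genes, the 7 included, were as far apart, and 11 of the 19 had no TE count at all, while 4 genes were as far apart in the opposite direction.

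At the level of cells, PECAM1 was over 1 TPM in a single TE cell, at 2.18 TPM, and the other 6 genes were over 1 TPM in 0 of 28 TE cells, where a count of 0 leaves room for up to 10.7%. In the 7 embryos that gave both lineages, VCAN, LRAT, C1QA and PECAM1 were higher in ICM than in TE in 7 of 7, and TLR3, PLK2 and SERPINB10 in 6 of 7. The exceptions were embryos whose ICM sum held no count of the gene, or 1: TLR3 was at 0 in AI, SERPINB10 at 0 in AA and PLK2 at 0.0902 CPM in AF, where the single TE cell had 0.445 CPM.

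**Figure D1:**
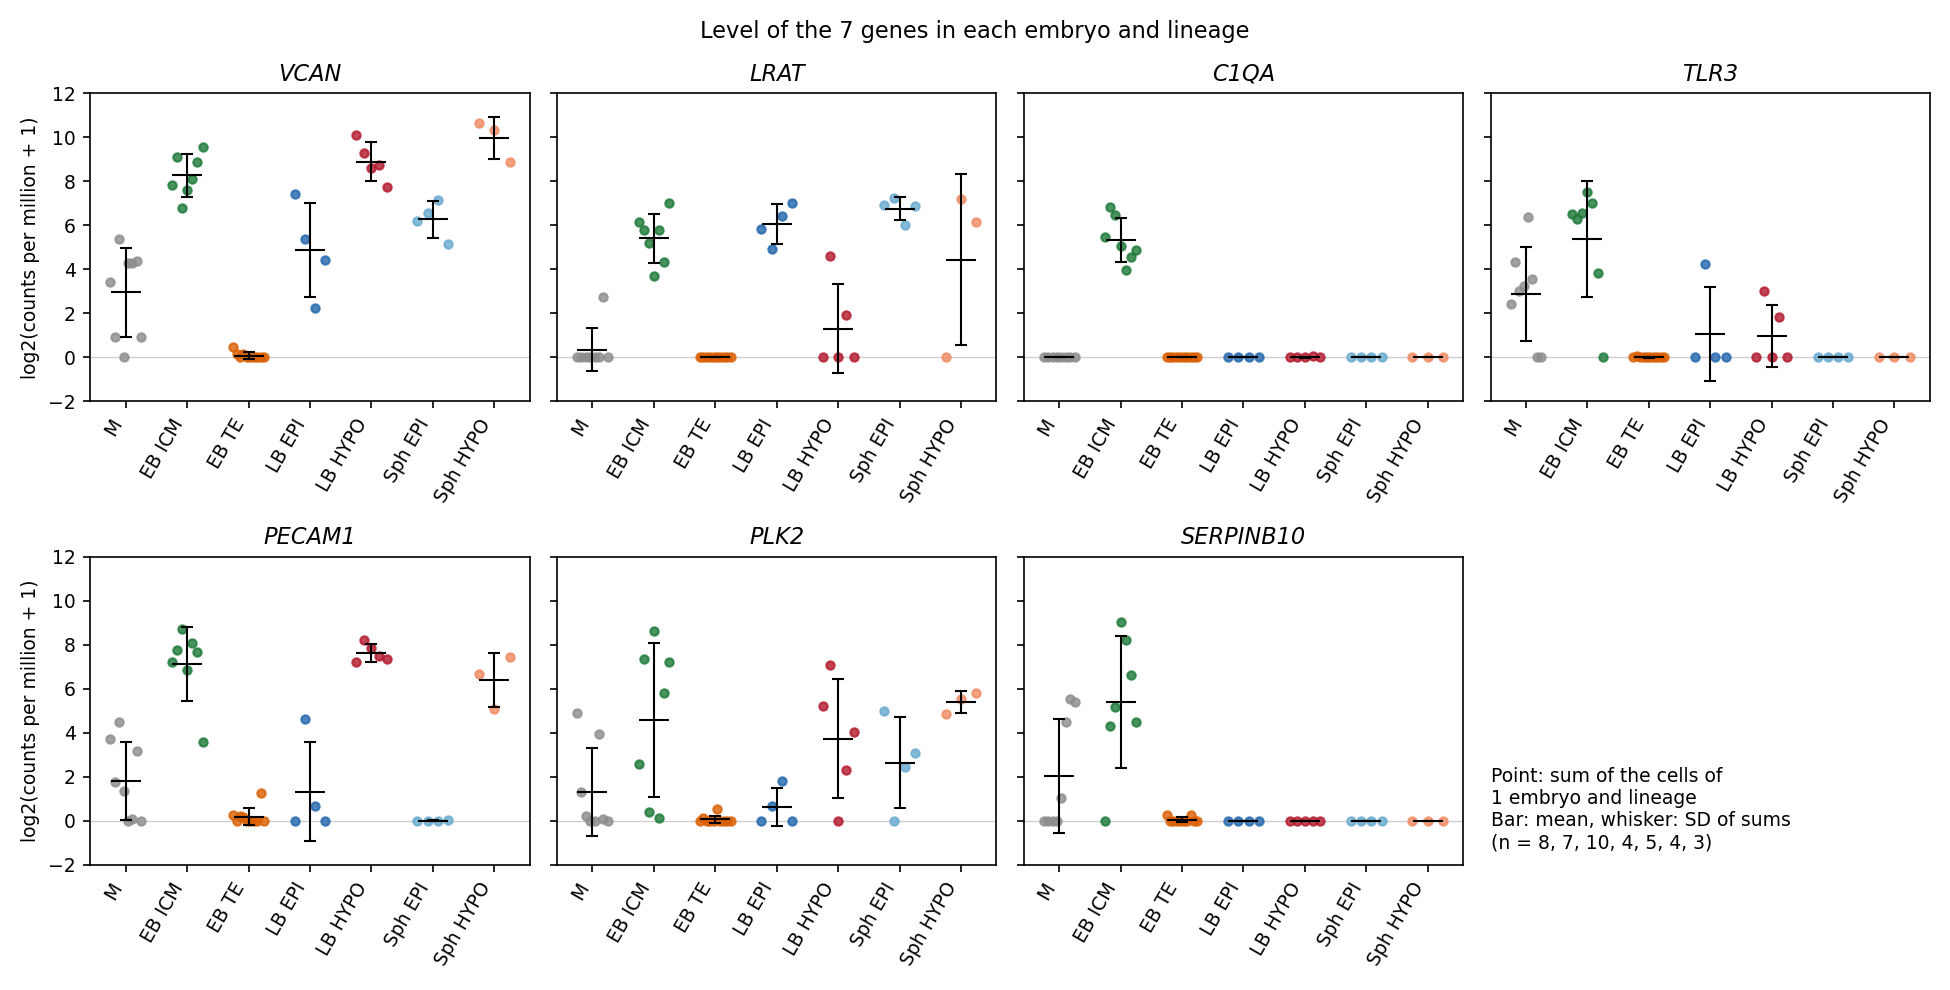
Level of each gene as log2(CPM + 1) in the 7 groups; each point is the sum of the cells of 1 embryo and lineage, the bar is the mean and the whisker the SD over sums. EB TE lies at or near 0 for all 7 genes, while VCAN and PECAM1 are high in both HYPO groups. LRAT is high in both EPI groups and in 2 of 3 Sph HYPO sums, and C1QA is above 0.1 CPM in EB ICM alone.

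In the 24 ICM cells the 7 genes were not detected as a set. VCAN and PECAM1 were each over 1 TPM in 22 of 24 cells (91.7%, exact Clopper-Pearson interval 73.0 to 99.0%), and C1QA in 20 (83.3%, 62.6 to 95.3%). TLR3 was over 1 TPM in 14 cells (58.3%), LRAT in 12 (50%), and PLK2 and SERPINB10 in 11 each (45.8%). The first 3 genes were thus detected in most ICM cells and the other 4 in part of them. PLK2 had a count in 14 cells, and a level under 1 TPM does not show that a gene was absent from a cell.

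A median ICM cell held 5 of the 7 genes, the lowest held 2 and 1 cell held all 7. By comparison a TE cell held 0 or 1, a M cell a median of 1 and at most 4, and no cell of the later groups more than 4. The 3 ICM cells with 3 or fewer of the genes had a median depth of 1950807 counts and the 13 cells with 5 or more had 1837131. Those 3 cells nonetheless had counts for fewer genes, at a median of 5470 against 5867 in the 13. With 3 cells on one side, a part of detection in these numbers was not tested. LRAT was not over 1 TPM in an ICM cell without PECAM1, itself in 22 of the 24: 12 cells had both, 10 had PECAM1 without LRAT and 2 had neither. TLR3 likewise was found in 14 cells that all had PECAM1.

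The shares of PLK2 and SERPINB10 varied between embryos, which was not tested. SERPINB10 was over 1 TPM in 0 of the 7 ICM cells of embryo AA, 2 of 6 cells of AC, 3 of 4 of AF and 2 of 3 of AG. It was also over 1 TPM in the 1 ICM cell of AD, both of AE and the 1 of AI. The highest cell had 653 TPM. PLK2 was found in 5 of 6 cells of embryo AC and both cells of AE, but in 1 of 7 cells of AA and 0 of 4 cells of AF. C1QA by contrast was found in every ICM embryo, with 6 of 7 cells in AA and 6 of 6 in AC. Where they were detected, the genes reached a median of 128 TPM for PLK2 and SERPINB10, 69.0 for PECAM1, 64.3 for TLR3, 55.4 for C1QA, 42.3 for LRAT and 41.2 for VCAN, which are length-adjusted and may be set side by side.

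**Figure D2:**
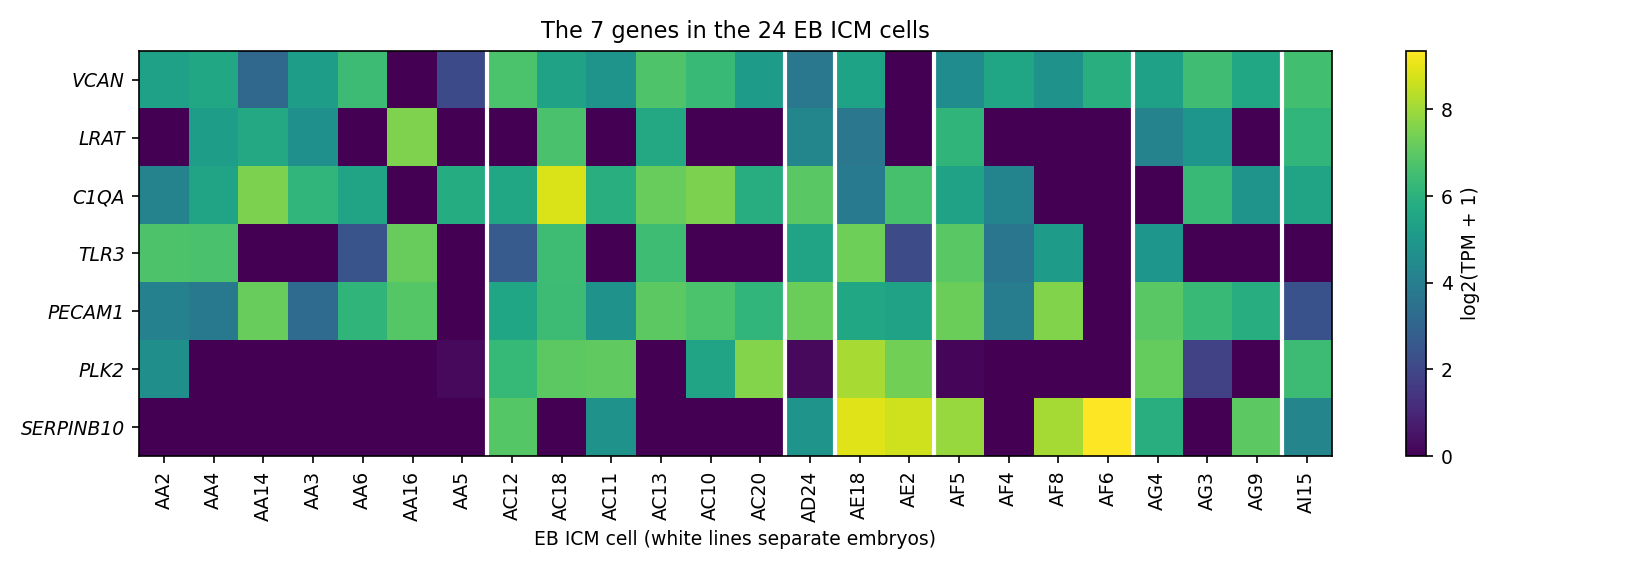
TPM of the 7 genes, as log2(TPM + 1), in each of the 24 EB ICM cells, ordered by embryo. VCAN, C1QA and PECAM1 fill most columns, LRAT and TLR3 come and go between cells, and SERPINB10 is at 0 in all 7 cells of embryo AA.

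VCAN was read in all 4 later groups. The 7 ICM sums ranged from 110 CPM through a median of 273 to 764 CPM, and the 10 TE sums from 0 through 0 to 0.401 CPM. The M sums ranged from 0 through 14.1 to 40.6 CPM. The late lineages split: LB HYPO had 215, 392, 432, 627 and 1099 CPM, and LB EPI had 3.76, 20.5, 40.3 and 171 CPM. No LB EPI sum reached the lowest LB HYPO sum, although embryo AN, with 2 EPI cells, came close. Sph HYPO had 466, 1294 and 1623 CPM and Sph EPI had 34.3, 73.3, 94.2 and 141 CPM, again with no overlap.

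With edgeR, VCAN passed the test between EPI and HYPO at Sph and not at LB. At Sph the log2 difference EPI minus HYPO was −3.64 ± 0.52 (SE), with edgeR adjusted p = 0.00835, where the median over all genes was 0.57. At LB it was −3.36 ± 0.86 with adjusted p = 0.0727, while DESeq2 (0.0097) and limma on log2(TPM + 1) (0.0219) called the gene. The stages were not shown to differ, since the difference between the log2 values was 0.38 ± 1.05 (adjusted p = 1). Without the LB EPI sum of embryo AN the LB difference was −4.58 with adjusted p = 0.0153. The Sph call was lost when all 7 groups shared a model (adjusted p = 0.148). The sample titles carry 8 number codes, taken here as pools although the labels do not say what the codes stand for. Within the first 4 pools edgeR adjusted p was 0.0288 at LB and 0.0116 at Sph. Within the last 4 pools it was 0.448 and 0.0639. VCAN was over 1 TPM in 33 of 36 LB HYPO cells, 12 of 12 Sph HYPO cells, 8 of 25 LB EPI cells and 35 of 48 Sph EPI cells, so that most Sph EPI cells held it at a low level, with a median of 8.09 TPM in those that did against 89.1 TPM in Sph HYPO.

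PECAM1 was high in HYPO sums and at or near 0 in most EPI sums. The 7 ICM sums ran from 10.9 through 206 to 422 CPM, TE from 0 through 0 to 1.40 CPM and M from 0 through 1.96 to 21.4 CPM. LB HYPO had 148, 165, 182, 232 and 297 CPM, a range that lies within that of ICM, and LB EPI had 0, 0, 0.57 and 24.1 CPM. Sph HYPO had 32.8, 102.1 and 176 CPM, and Sph EPI had 0 in 3 sums and 0.0213 CPM, from 1 count, in the fourth.

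In Sph embryos PECAM1 was higher in HYPO than in EPI, with edgeR adjusted p = 0.00363, a call that limma on log2(TPM + 1) did not make (adjusted p = 0.0679). The pooled counts, 3867 in 12 HYPO cells and 1 in 48 EPI cells, gave a ratio of 17449 with a 95% counting interval of 3130 to 689362. With PECAM1 and VCAN, 2 of the 7 genes passed the test in Sph EPI against Sph HYPO, where 1.13% of all genes did. C1QA, TLR3 and SERPINB10 had 0 counts in these sums and could not be called. The matched hypoblast markers summed to 4956 to 16044 CPM in Sph HYPO and 53.6 to 89.2 CPM in Sph EPI. The trophectoderm markers summed to 18499 to 43178 CPM in Sph HYPO and 2815 to 9705 CPM in Sph EPI. Most of this was KRT8, at a mean of 26031 CPM in Sph HYPO and 5619 CPM in Sph EPI. The part of either marker list in the result was not tested. At LB the pooled ratio was 39.3 (35.1 to 44.2), the log2 difference EPI minus HYPO was −5.10 ± 1.62 and edgeR adjusted p was 0.162, while DESeq2 (0.0212) and limma on log2(TPM + 1) (0.00876) called the gene. That comparison turned on embryo AO, which held 297 of the 307 LB EPI counts in 5 cells. Without that sum the log2 difference was −9.89 and adjusted p 0.00226. The test of the difference between stages gave adjusted p = 0.304 with edgeR and 0.00831 with DESeq2.

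PECAM1 was over 1 TPM in 29 of 36 LB HYPO cells (80.6%, interval 64.0 to 91.8%) and 11 of 12 Sph HYPO cells (91.7%, 61.5 to 99.8%). In EPI it was over 1 TPM in 3 of 25 LB cells (12%, 2.55 to 31.2%) and 0 of 48 Sph cells, where a count of 0 leaves room for up to 6.25%. VCAN and PECAM1 were found together in 28 of 36 LB HYPO and 11 of 12 Sph HYPO cells, and in 1 of 25 LB EPI and 0 of 48 Sph EPI cells. In ICM they were found together in 20 of 24 cells, and with each gene in most cells of these groups such overlap says nothing of a link between them.

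LRAT was read in both EPI groups and in part of the HYPO sums. The ICM sums ran from 12.02 through 53.8 to 127 CPM and all 10 TE sums were at 0. Of the 8 M sums 7 were at 0, and embryo X had 5.77 CPM from 79 counts, all in a single cell over 1 TPM. LB EPI had 28.9, 56.0, 85.5 and 130 CPM, and Sph EPI had 64.4, 116, 120 and 149 CPM. LB HYPO had 0 in 3 sums, 2.85 and 23.1 CPM, and Sph HYPO had 0, 70.0 and 145 CPM.

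At LB no EPI sum overlapped a HYPO sum, and all 3 embryos with both lineages had more LRAT in EPI. The gene yet did not pass the test (log2 difference 3.57 ± 1.66, edgeR adjusted p = 0.249). DESeq2 did not call it either (adjusted p = 0.132), while limma on log2(TPM + 1) did (adjusted p = 0.018). At Sph the groups overlapped, with a log2 difference of 0.73 ± 1.32 and adjusted p = 0.862, and in embryo E the HYPO sum exceeded the EPI sum. The difference between the stages was 2.95 ± 2.20 on the log2 scale (adjusted p = 0.747). LRAT was over 1 TPM in 19 of 25 LB EPI cells (76.0%, interval 54.9 to 90.6%) and 44 of 48 Sph EPI cells (91.7%, 80.0 to 97.7%). The shares in HYPO were 9 of 36 LB cells (25%, 12.1 to 42.2%) and 5 of 12 Sph cells (41.7%, 15.2 to 72.3%).

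Thus LRAT and PECAM1, which shared 12 of 24 ICM cells, were over 1 TPM together in 1 of 25 LB EPI cells, 7 of 36 LB HYPO cells, 0 of 48 Sph EPI cells and 4 of 12 Sph HYPO cells. In Sph EPI, 44 cells had LRAT and none of them PECAM1. These shares are counts of cells from 3 to 5 embryos in each group and were not tested.

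PLK2 varied widely between ICM sums and between LB HYPO sums. The ICM sums ran from 0.0902 through 55.0 to 393 CPM, TE from 0 through 0 to 0.445 CPM and M from 0 through 0.124 to 29.3 CPM. LB HYPO had 0, 4.03, 15.5, 35.8 and 134 CPM, LB EPI had 0, 0, 0.569 and 2.51 CPM, Sph HYPO had 28.1, 44.8 and 55.5 CPM and Sph EPI had 0, 4.48, 7.51 and 31.2 CPM. The ranges of EPI and HYPO overlapped at both stages, and the gene did not pass edgeR's test (adjusted p = 0.233 at LB and 0.5997 at Sph). At LB DESeq2 called it (adjusted p = 0.0334) and limma on log2(TPM + 1) did not (adjusted p = 0.356).

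At LB the pooled counts of PLK2 were 3883 in HYPO and 51 in EPI, but 3646 of the 3883 came from embryo AM. It was over 1 TPM in 10 of 36 LB HYPO, 7 of 12 Sph HYPO, 2 of 25 LB EPI and 9 of 48 Sph EPI cells. In LB EPI against LB HYPO, 0 of the 7 genes passed edgeR's test and 1.92% of all genes did. C1QA, with 1 count, and SERPINB10, with 0, could not have been called there. At an unadjusted p under 0.05 there were 3, VCAN, PECAM1 and PLK2, beside 2943 of all 14721 genes. DESeq2 called the same 3, and 1369 genes in all. In the difference between stages, for which C1QA, TLR3 and SERPINB10 had no Sph counts, 0 of the 7 passed with edgeR, where 0.0408% of all genes did, 1 had an unadjusted p under 0.05 and DESeq2 called 1, in each case PECAM1. Of all 14721 genes, 1597 had an unadjusted p under 0.05 there and DESeq2 called 540.

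**Figure D3:**
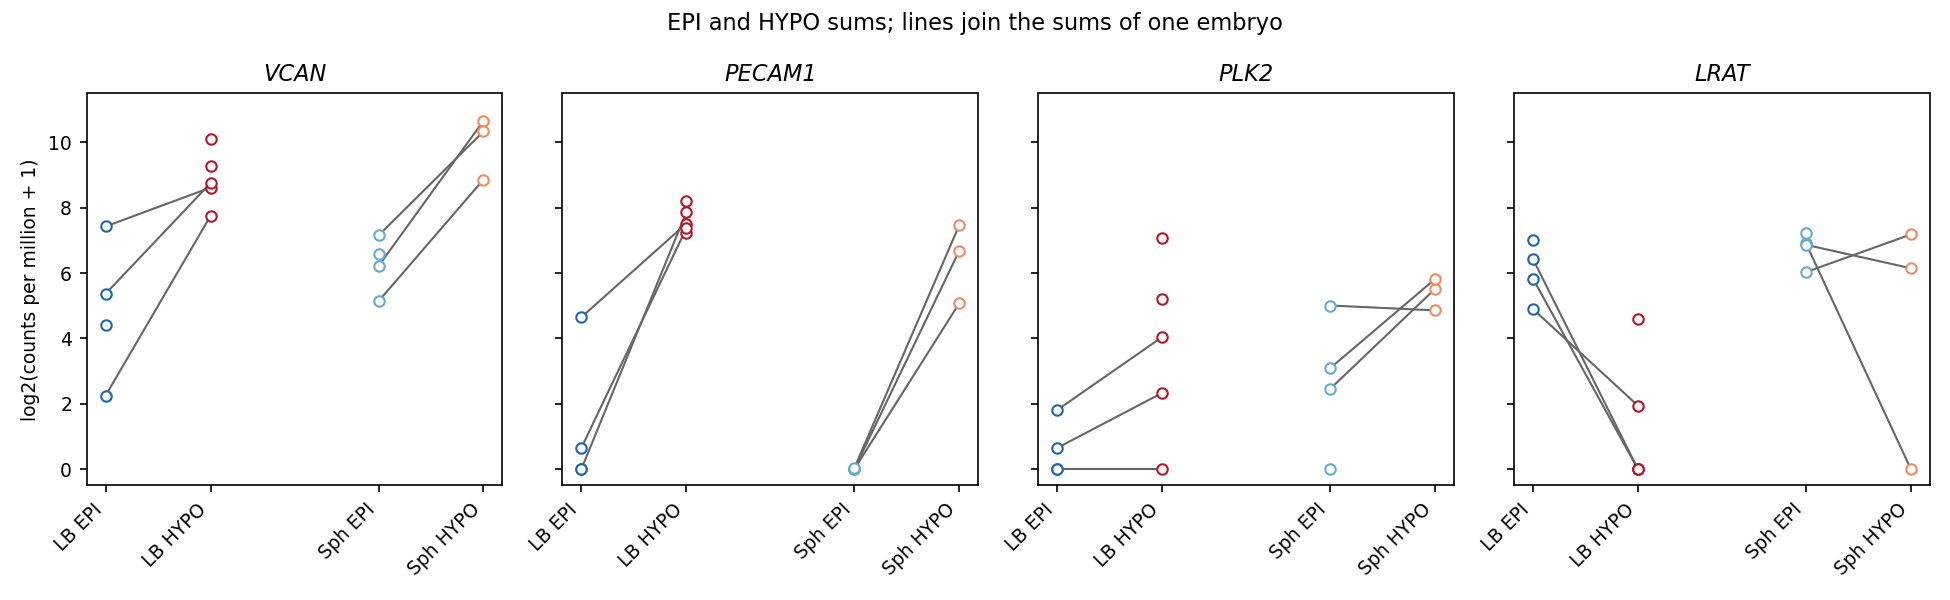
Level, as log2(CPM + 1), of 4 of the genes in EPI and HYPO sums of late blastocysts (LB) and spherical embryos (Sph); each circle is a sum and lines join the EPI and HYPO sums of an embryo. VCAN and PECAM1 go up from EPI to HYPO in 3 of 3 embryos at each stage, and LRAT goes down in 3 of 3 LB embryos and in 2 of 3 Sph embryos.

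C1QA was confined to the early blastocyst's inner cell mass as far as these cells show. The 7 ICM sums ran from 14.8 through 32.8 to 112 CPM, and 2685 of the 2686 counts in the 220 cells lay in the 24 ICM cells. The remaining count was in a LB HYPO cell. It was over 1 TPM in 0 of 47 M cells (up to 6.38%), 0 of 28 TE cells (up to 10.7%), 0 of 25 LB EPI cells (up to 12%), 0 of 36 LB HYPO cells (up to 8.33%), 0 of 48 Sph EPI cells (up to 6.25%) and 0 of 12 Sph HYPO cells (up to 25%). No later or earlier group held enough counts for a difference between them to be read. The other chains of C1q had no matched entry and were not analysed here.

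TLR3 and SERPINB10 had most of their counts in EB ICM too, but were also read in the morula. The M sums of TLR3 ran from 0 through 7.86 to 83.4 CPM and its ICM sums from 0 through 90.4 to 182 CPM. Later it had 0, 0, 0 and 18.03 CPM in LB EPI and 0, 0, 0, 2.61 and 7.09 CPM in LB HYPO, and 0 counts in all 7 Sph sums. The LB EPI counts came from a single cell of embryo AO. TLR3 was over 1 TPM in 9 of 47 M cells (19.1%, interval 9.15 to 33.3%), 1 of 25 LB EPI cells, 3 of 36 LB HYPO cells and none of the 48 EPI and 12 HYPO cells of Sph. The test of M against LB EPI gave a log2 difference of 1.67 ± 2.08 (adjusted p = 0.680), and M against LB HYPO gave 2.81 ± 1.82 (adjusted p = 0.348), so neither passed.

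SERPINB10 was at 0 in 4 of 8 M sums, the others having 1.03, 21.8, 40.9 and 44.9 CPM, and its ICM sums ran from 0 through 35.4 to 522 CPM. After the early blastocyst no count of it was read in the 25 EPI and 36 HYPO cells of LB or the 48 EPI and 12 HYPO cells of Sph. The pooled M counts were at least 218-fold above LB EPI and at least 278-fold above LB HYPO, each against a floor of 3 counts over the later group. In the pairwise fits these did not pass edgeR's test (adjusted p = 0.0858 and 0.0694). Both were called by edgeR with all 7 groups in a model (0.0291 and 0.0234) and by DESeq2. The DESeq2 log2 differences, 24.6 and 24.97, were taken against groups with 0 counts. With limma on log2(TPM + 1) neither was called (adjusted p = 0.327 and 0.281), at a log2 difference of 0.986 in each. It was over 1 TPM in 8 of 47 M cells (17.02%, interval 7.65 to 30.8%), all in embryos V, W, X and Y. SERPINB10 has close relatives in clade B, and how reads of such relatives were divided could not be checked in these files.

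**Figure D4:**
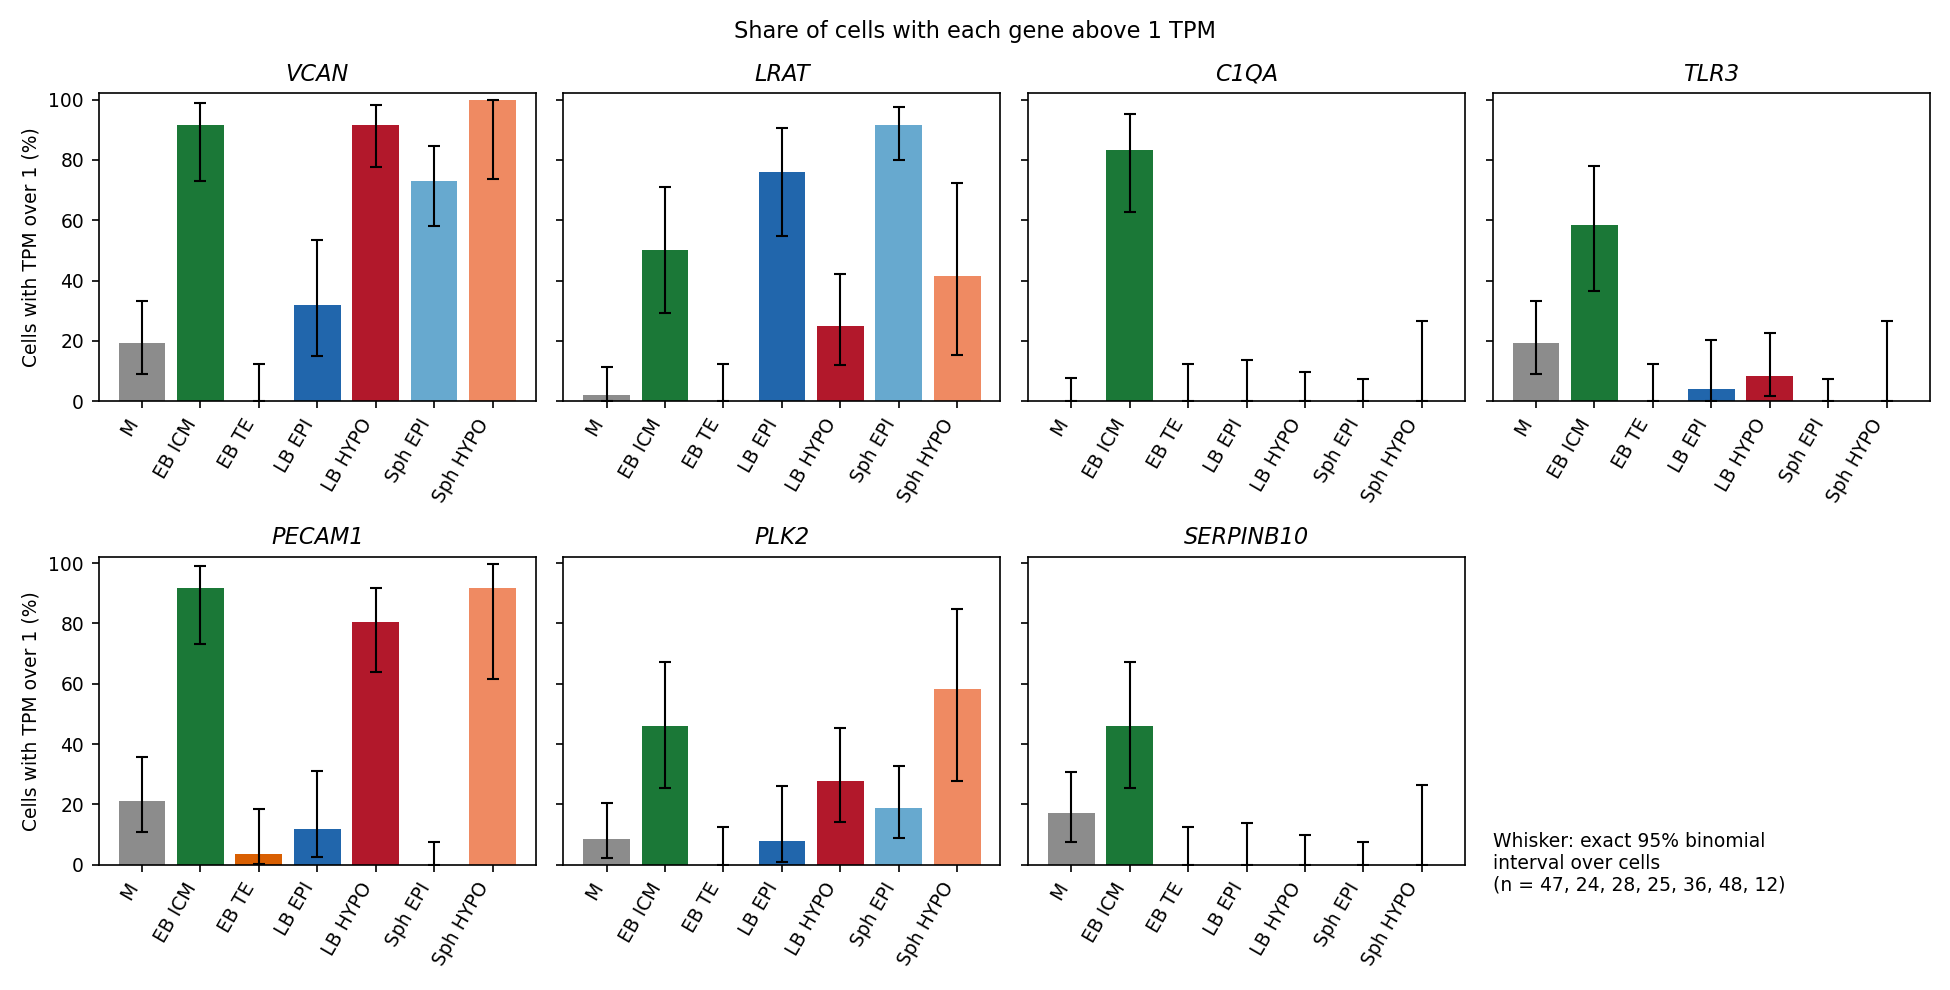
Share of cells over 1 TPM for each gene in each group, in percent, with exact 95% binomial intervals over cells. The bars of VCAN and PECAM1 are high in EB ICM and both HYPO groups. Those of LRAT are highest in both EPI groups and reach 50% in EB ICM and 41.7% in Sph HYPO. C1QA has a bar in EB ICM alone.

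The morula and the late lineages were compared because the rule of choice used neither, although earlier results of these data were known. C1QA had no counts in M or LB EPI and 1 in LB HYPO, and could not be called. M against LB EPI called 1 of the 7 genes, where 8.69% of all genes passed. This was LRAT, which was lower in M by a log2 difference of −6.74 ± 1.77 (edgeR adjusted p = 0.0267), with no overlap between the 8 M sums and the 4 LB EPI sums. The call was lost without LB EPI embryo AP (adjusted p = 0.0577), without AQ (0.0679) and within the first 4 pools (0.170), and held within the last 4 (0.00279). VCAN, PECAM1 and PLK2 differed between M and LB EPI by log2 values of −2.0 ± 1.22, −0.20 ± 1.95 and 2.68 ± 2.42, none past the test.

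M against LB HYPO called 2 of the 7, VCAN and PECAM1, where 8.2% of all genes passed. VCAN was lower in M by −5.36 ± 0.97 on the log2 scale (edgeR adjusted p = 0.00187) and PECAM1 by −5.22 ± 1.15 (adjusted p = 0.0089), and for both every LB HYPO sum lay above every M sum. Within the first 4 pools adjusted p was 0.0544 and 0.0567, and within the last 4 it was 0.00955 and 0.0334. Both genes were therefore low in M and high in LB HYPO, and the M sums did not reach them.

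Between LB and Sph no member passed in either lineage, C1QA and SERPINB10 having at most 1 count in each. In EPI, 0 of the 7 passed edgeR's test and 0.156% of all genes did. At an unadjusted p under 0.05 there were 2, TLR3 and PECAM1, for which Sph EPI held 0 and 1 count, and DESeq2 called 0 and gave PECAM1 no adjusted p. Of all 14721 genes, 1999 had an unadjusted p under 0.05 in EPI and DESeq2 called 828. In HYPO, 0 of 7 passed and 0.163% of all genes did, with 1 unadjusted p under 0.05, for VCAN, and 0 calls with DESeq2. Over all genes these numbers were 1402 and 336 in HYPO. The log2 differences LB minus Sph were −0.63 ± 0.90 for VCAN and −0.65 ± 0.52 for LRAT in EPI, and −1.11 ± 0.45 for VCAN and 0.86 ± 0.66 for PECAM1 in HYPO. Errors of this size do not show that the levels were equal.

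Ordered by mean CPM over sums, C1QA, TLR3, PLK2 and SERPINB10 were highest in EB ICM, VCAN in Sph HYPO, LRAT in Sph EPI and PECAM1 in LB HYPO. PLK2 was highest in Sph HYPO when the mean was taken on the log2 scale, and PECAM1 in EB ICM when log2 TPM was used. Most neighbours in these orders overlapped. A group lay clear of the next in the order for C1QA, with 49.0 ± 36.7 CPM (SD, n = 7) in EB ICM and 0.00678 ± 0.0152 (n = 5) in LB HYPO, and for PECAM1, with 104 ± 71.8 CPM (n = 3) in Sph HYPO and 6.17 ± 11.97 (n = 4) in LB EPI. For C1QA the clear group is the group that chose it, and 0 cells outside it were over 1 TPM. The share of all genes whose groups lie clear, here or in the tested comparisons, is not given, so no weight is put on it.

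Markers of the tissues in which some of these genes are best known were looked up in the same cells. Of 7 matched endothelial markers, CDH5, KDR, ERG and ROBO4 were over 1 TPM in 0 of the 24 ICM cells, TEK in 2 and TIE1 and ESAM in 1 each. TIE1 was over 1 TPM in 10 and ESAM in 4 of 36 LB HYPO cells. The list summed to 0 to 50.4 CPM over ICM sums and 0 to 9.92 CPM over LB HYPO sums. Of 8 matched leukocyte markers, PTPRC, CSF1R and TYROBP were over 1 TPM in 0 ICM cells, CD68 and FCER1G in 3 each and CD14 and LAPTM5 in 1 each, and FCER1G was over 1 TPM in 14 of 36 LB HYPO cells. The leukocyte list summed to 5.86 to 137 CPM in ICM sums, with a median of 50.1 CPM, of the order of C1QA's own level. ITGAM gave most of it, with a mean of 37.2 CPM and 10 of 24 cells over 1 TPM. The list summed to 0 to 61.8 CPM in TE and 8.01 to 83.4 CPM in LB HYPO, and its part in the levels of the 7 genes was not tested. The 5 matched stromal markers were over 1 TPM in 0 ICM cells and summed to 0 to 0.0909 CPM there.

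Versican works in a matrix of hyaluronan, link proteins and other proteoglycans, and 20 of 25 genes listed for that matrix were tested. Counts of called genes in this and the following lists are few and stand beside the shares of all genes given above, 1.92% at LB, 1.13% at Sph, 8.69% for M against LB EPI and 8.2% for M against LB HYPO. At LB 2 of them were higher in HYPO and 0 in EPI. They were the versican-cleaving protease ADAMTS9, with 0.0548 ± 0.0766 CPM in 4 EPI sums and 145 ± 108 in 5 HYPO sums (edgeR adjusted p = 0.00115), and fibulin 2, FBLN2, with 28.7 ± 35.6 and 635 ± 233 CPM (adjusted p = 0.0392). At Sph again 2 were higher in HYPO and 0 in EPI: the hyaluronan link protein HAPLN1, with 0.0380 ± 0.0516 CPM in EPI and 869 ± 404 in HYPO (adjusted p = 8.96e-05), and FBLN2, with 0.897 ± 1.49 and 216 ± 30.99 CPM (adjusted p = 0.0362). The median log2 difference of the list was −0.28 at LB and 0.018 at Sph, against 0.00 and 0.57 over all genes.

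The hyaluronan synthase HAS2 was higher in Sph EPI than in LB EPI, at 246 ± 222 and 13.0 ± 6.65 CPM (adjusted p = 0.049). Compared with M, 4 of the 20 were higher in LB EPI, led by HAS2, the fibulin FBLN1 and the protease ADAMTS15. In LB HYPO 5 were higher than in M, led by FBLN1 (0 counts in M, 148 ± 82.8 CPM in LB HYPO, adjusted p = 8.31e-06), FBLN2 and HAPLN1, and 1, the chain-starting enzyme XYLT1, was lower. None of the 20 passed in LB HYPO against Sph HYPO or in the difference between stages. In EB ICM the list was led by the chain-building enzyme CHSY1, with 85.0 ± 118 CPM over 7 sums, FBLN2 with 54.4 ± 30.2 and the hyaluronan receptor CD44 with 25.7 ± 42.4.

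Retinol metabolism, to which LRAT belongs, gave 20 tested genes of 30. At LB 1 was higher in EPI, the retinoic acid binding protein CRABP2, with 115 ± 54.8 CPM in EPI and 0.652 ± 0.692 in HYPO (edgeR adjusted p = 0.00946). CRABP2 was also higher in M than in LB HYPO (90.8 ± 22.3 CPM, adjusted p = 0.000125), while the retinal reductases DHRS3, at 0.729 ± 1.37 and 52.2 ± 15.5 CPM, and RDH11, at 11.1 ± 13.1 and 159 ± 29.97 CPM, were higher in LB HYPO (adjusted p = 0.0118 and 0.046). Against M, LB EPI had more CRABP1, RBP4 and RDH5, at 2.21 ± 2.62, 4.70 ± 4.33 and 5.33 ± 6.41 CPM (adjusted p = 0.0305, 0.0321 and 0.0496), low levels beside the 75.0 ± 43.1 CPM of LRAT. None of the 20 passed in the other 4 comparisons. In EB ICM the list was led by RDH11 with 128 ± 90.3 CPM, CRABP2 with 77.3 ± 59.0 and DHRS3 with 40.1 ± 49.5.

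Of the complement system 12 of 29 genes were tested. CALR, a chaperone that also binds C1q, was higher in LB HYPO than in LB EPI, at 1134 ± 221 and 413 ± 52.5 CPM (edgeR adjusted p = 0.00597), and than in M, at 336 ± 66.9 CPM (adjusted p = 1.3e-05). Against M, LB HYPO also had more of the protease CFD (adjusted p = 0.0155) and of C2, at 45.6 ± 56.9 and 0.467 ± 0.923 CPM (adjusted p = 0.0371), and LB EPI more CFD and MASP1 (adjusted p = 0.0155 and 0.0466). The 7 ICM sums had 412 ± 177 CPM of CALR, 40.3 ± 61.2 of MASP2 and 19.2 ± 23.8 of CFD, which had 0 counts in TE. No other comparison called a gene of the list.

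Of the Toll-like receptor pathway 14 of 25 genes were tested, and calls were made in M against LB EPI alone. MYD88, an adaptor that most of the receptors use and TLR3 does not, was higher in M (69.0 ± 49.0 against 0.527 ± 1.05 CPM, edgeR adjusted p = 0.0333), and TLR2, a receptor for bacterial lipoproteins, was higher in LB EPI (15.98 ± 14.2 against 0.0608 ± 0.172 CPM, adjusted p = 0.0178). In EB ICM the list was led by MYD88 with 53.6 ± 72.7 CPM, by IFIH1, a cytoplasmic sensor of double-stranded RNA, with 53.2 ± 38.5, and by the kinase EIF2AK2 with 41.8 ± 43.6. Of these, IFIH1 was over 1 TPM in 14 of 24 ICM and 1 of 28 TE cells, and MYD88 in 11 of each.

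Of PECAM1's partners 10 of 12 were tested, and the kinases SRC and FYN were higher in LB EPI than in M (edgeR adjusted p = 0.0228 and 0.0301) and SRC in LB HYPO than in M (adjusted p = 0.00891), with 0 of 10 called in the other 5 comparisons. CTNNB1, JUP and ITGAV led the list in ICM, at 603 ± 271, 327 ± 119 and 275 ± 169 CPM. Of the polo-like kinases and PLK2's partners 6 of 10 were tested and 0 passed in any of the 7 comparisons. NPM1, MDM2 and CENPJ led them in ICM, at 3876 ± 509, 282 ± 236 and 16.4 ± 21.1 CPM.

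Of the other clade B serpins 4 of 11 were tested. SERPINB5 was higher in LB EPI than in Sph EPI, where it had 0 counts (64.3 ± 32.6 CPM, edgeR adjusted p = 0.0144). SERPINB8 was higher in M than in LB EPI (16.98 ± 19.3 against 0.0742 ± 0.116 CPM, adjusted p = 0.0482), and SERPINB2 was lower in M than in LB EPI and LB HYPO (adjusted p = 0.0138 and 0.000596). SERPINB8 thus differed in the direction of SERPINB10, which itself did not pass. SERPINB5, SERPINB8 and SERPINB1 were the serpins with most CPM in EB ICM, at 90.2 ± 230, 8.19 ± 16.8 and 1.90 ± 3.93, and in TE they had 70.0 ± 117, 26.1 ± 42.1 and 1.54 ± 4.87 CPM in the same order.

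As a description over the 41 sums, with log2(CPM + 1) of all tested genes that carry a symbol, the genes most like VCAN were FN1 (Pearson r = 0.89), CTSB (0.79) and PLA2G12B (0.78), and those most like PECAM1 were SLC7A9 (0.87), GJB1 (0.85) and APOC3 (0.84). FN1 encodes fibronectin and is one of the hypoblast markers used above. LRAT was most like PSME2 (0.82), LXN (0.81) and SPATA6 (0.77). C1QA was most like RAC2 (0.82), TGFBR3 (0.81) and SLAMF7 (0.79), and SERPINB10 most like CCR1 (0.77), BTN1A1 (0.77) and MAST3 (0.71). SLAMF7 had a mean of 78.8 CPM in EB ICM and 0 counts in each of the other 6 groups, and CCR1 had 107 CPM in EB ICM, 2.49 in M and 0 elsewhere. TLR3 was most like EXPH5 (0.70), C1QA (0.68) and SPIC (0.67), and PLK2 most like VCAN (0.67), CIDEB (0.66) and PLA2G12B (0.65). Among the members the highest r was 0.75, between VCAN and PECAM1, and the lowest was 0.14, between LRAT and TLR3, all pairs sharing the same sums and the choice that made them high in ICM and low in TE.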

How the data were processed

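The authors aligned reads with HISAT2 2.1.0 to the Sscrofa10.2 pig genome, kept uniquely mapped reads, counted them on Ensembl genes with HTSeq and deposited the raw counts per gene and cell. The authors also deposited TPM values made from those counts. Symbols came from a table of Ensembl names. The members and gene lists were chosen with earlier results of these data known.

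Counts were summed per embryo and lineage; the embryo was read from the cell identifier, and 1 M cell without an embryo entered shares of cells alone. Each comparison was fitted over 14721 genes (TPM over 1 in at least 3 cells) with TMM and the quasi-likelihood test of edgeR 4.0.16 in R 4.3.3, with Benjamini-Hochberg adjusted p under 0.05 as the threshold. The SE is the log2 difference divided by the root of F. CPM are counts per 1000000 of a sum's total. Embryos pair EPI and HYPO sums; residual correlations of the same embryo were −0.00373 to 0.0840 at LB and 0.0168 to 0.191 at Sph. The fits were also run on simulated counts with known changes and the same preset dispersion for every gene. Such a run does not show how the tests err on sums as variable as these. DESeq2 1.42.0 and limma 3.58.1 on log2(TPM + 1) served as alternatives. Shares used scipy 1.17.1 under Python 3.11.15, pandas 2.3.3 and matplotlib 3.10.9.

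Named genes were the 7 members, at most 3 per list and direction by adjusted p, the 3 of each list with most CPM in EB ICM, and the 3 most correlated with each member. Depth was 1012604 to 5696373 counts per cell.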

Additional observations from a re-analysis of the deposited data

Results flagged for a closer look

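Within a group of 4 to 10 sums, 5 of 27 combinations of gene and group had a sum that stood apart from the others by Dixon's criterion. Chance flags about 1 in 20 groups of near-normal values, and a group at 0 but for a single sum, as in LRAT and TLR3 here, is always flagged. LRAT was at 5.77 CPM in M embryo X and at 0 in the other 7 M sums. TLR3 was at 18.03 CPM and PECAM1 at 24.1 CPM in LB EPI embryo AO, where the next sums had 0 and 0.57 CPM. PECAM1 was at 10.9 CPM in EB ICM embryo AI, a single cell, below the next sum of 116 CPM, and at 1.40 CPM, or 7 counts, in EB TE of the same embryo, above the next of 0.201 CPM. The causes were not tested.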

How the results depend on the processing

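The number of members called was recomputed under each alternative. In LB EPI against LB HYPO it was 0, and 3 with DESeq2, 3 with limma on log2(TPM + 1), 3 with limma on log2(TPM + 0.1), 1 in the first 4 pools and 0 to 1 when a sum was left out. In Sph EPI against Sph HYPO it was 2, and 1 with all 7 groups in a model (VCAN lost, adjusted p = 0.148), 1 in the last 4 pools, and 1 with each limma fit (PECAM1 lost, adjusted p = 0.0554 and 0.0679). It was 1 in place of 0 with DESeq2 for the difference between stages, and 0 throughout for LB against Sph in EPI and in HYPO. In M against LB EPI it was 1, and 2 with DESeq2 and with all 7 groups in a model, 0 in the first 4 pools and 0 to 1 with a sum left out. In M against LB HYPO it was 2, and 3 with DESeq2 and with all 7 groups in a model (SERPINB10 added), and 0 in the first 4 pools. Members over the level in any TE cell numbered 1, and 5 with TPM over 0, 0 with TPM over 5 and 0 with TPM over 10. With the embryo as a replicate block the Sph calls of VCAN (adjusted p = 0.00721) and PECAM1 (0.0382) were kept, and at LB VCAN had 0.192, PECAM1 0.208 and LRAT 0.547; genes called in all were 20 in place of 283 at LB, 82 in place of 167 at Sph and 13 in place of 6 between stages.

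Of 723 gene values under alternatives, 23 changed sign, none of them called. They were, on the log2 scale, −7.69 for TLR3 between the LB lineages in the first 4 pools, −0.031 for LRAT between the Sph lineages in the last 4 pools, and between stages −1.66 for VCAN in the first 4 pools, −0.71 for VCAN with limma on log2(TPM + 0.1), −0.041 for PECAM1 with limma on log2(TPM + 1), and 0.29 and 0.31 for PLK2 with limma. In LB against Sph they were 0.32 for VCAN in EPI in the last 4 pools, and −0.29 for PECAM1 and 0.999 for PLK2 in HYPO in the first 4 pools. In M against LB EPI they were 0.90 for VCAN in the first 4 pools, −1.62 for TLR3 and 0.35 for PECAM1 in the last 4 pools, and 0.10 and 0.012 for PECAM1 with limma. With a sum left out, log2 values ran from −7.84 to 2.53 for TLR3 between LB lineages, −0.98 to 0.73 for VCAN between stages, −1.81 to 0.049 for PLK2 in HYPO and −0.94 to 4.71 for PECAM1 in M against LB EPI. Genes called in all ranged from 20 to 1369 at LB, 78 to 1446 at Sph, 0 to 540 between stages, 7 to 828 and 17 to 336 for LB against Sph in EPI and HYPO, 325 to 2287 for M against LB EPI and 337 to 2342 for M against LB HYPO. The causes were not tested. Leaving out the TE cell against its label, which changed no TE count of the members, and ordering groups by mean CPM were chosen after seeing the data.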
